A study of Sus scrofa with 8 samples.

Results

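Ribosomal protein genes were examined in testis RNA of 8 boars on a porcine Agilent array with a single dye. A probe was taken as a ribosomal protein probe if the RefSeq symbol of its accession, or its gene name in the study's list of probes with P under 0.05 between the diets, was RPL or RPS followed by a digit, or was RPSA, RPLP0, RPLP1 or RPLP2, and the kinases named RPS6K were left out. This gave 52 of the 43603 probes on the array, for 27 of the 2228 genes that could be named. By symbol, 15 of these genes with 26 probes were assigned to the large ribosomal subunit and 12 genes with 26 probes to the small subunit. RPL7L1, which acts in the assembly of the large subunit, was counted with the large subunit. RefSeq accessions named 51 of the 52 probes, and an RPL11 probe (A_72_P191886) was named only in the study's list, which had been chosen on these boars, so its diet difference is not independent of that choice. The RefSeq table of the assembly Sscrofa11.1 holds 84 such symbols, 27 of them with a probe here, and no probe was named RPLP1, RPLP2 or RPS27A.

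The Large White boars m_9597, m_9599, m_9499 and m_9527 received from month 1 to month 10 of age a feed with extra folate, betaine, choline, methionine and vitamins B6 and B12 (supplemented diet), while the standard feed (control diet) went to m_9598, m_9600, m_9502 and m_9528. The boars m_9597, m_9598, m_9599 and m_9600 were full brothers of 1 litter and shared 1 slide, and the other 4 boars shared the second slide, so that the litter of brothers and its slide cannot be told apart here. The 8 boars came from 3 litters, and how the boars of the second slide divide into litters is not given, so they are taken here as a group of other boars. Each slide carried boars of both diets. Place on the slide cannot be told apart from diet, since arrays of the supplemented diet were at places 1 and 3 of each slide and those of the control diet at 2 and 4. All values are log2 of the median spot signal, quantile-normalized over the 8 arrays, and values of the boars are given in the order named here. With 4 arrays per diet, the number of arrays limits the precision.

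The ribosome is built from ribosomal RNA and from proteins that are needed in nearly equal numbers, so that cells make the messages of these proteins in large and roughly matched amounts. Those messages begin with a short pyrimidine tract, through which nutrient signalling by the kinase mTOR sets how much of them is translated. In the testis, genes on the X chromosome such as RPL10 are silenced while spermatocytes pass through meiosis, and autosomal copies of some X-linked ribosomal protein genes are expressed in male germ cells.

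The ribosomal protein probes were among the brightest of the array in the testis of every boar. All 52 were present and well above background on all 8 arrays, and no spot of the arrays was saturated. Of the 52 probes, 50 (96.2%) lay in the brightest 10% of the 36982 present probes and 29 (55.8%) in the brightest 1%, with 24 of 26 and 9 of 26 for the large subunit and 26 of 26 and 20 of 26 for the small subunit. The 52 probes are 0.141% of the present probes and held 3.30% ± 0.14 (SD, n = 4) of their summed signal in the supplemented boars and 3.25% ± 0.24 (SD, n = 4) in the control boars. The share in the single boars was 3.30, 3.31, 3.46 and 3.12% on the supplemented and 3.50, 3.38, 3.13 and 2.97% on the control diet, and the diets overlapped. In RNA of whole testis, a lower level through fewer cells of a type cannot be told apart from less RNA per cell. The brightness of a probe also depends on its sequence, so it describes the probes as a group and does not rank the transcripts.

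For RPS20, a protein of the small subunit, A_72_P396308 gave 18.23, 18.31, 18.32 and 18.09 on the supplemented and 18.43, 18.18, 18.11 and 18.26 on the control diet. The other RPS20 probe (A_72_P243932) gave 17.93, 18.04, 18.15 and 17.92 against 18.17, 17.99, 17.98 and 18.22. The boars differed in RPS20 by at most 1.26-fold on the first and 1.23-fold on the second of these probes, and neither diet stood apart. At the dim end, the RPS23 probe A_72_P146691 gave 13.16, 12.99, 13.19 and 13.16 against 13.10, 13.32, 13.10 and 12.90. RPS23 lies at the decoding centre of the small subunit, and this probe stood above 91.1% of the present probes. Dimmer still were the RPL11 probe A_72_P191886, above 72.3% of the present probes, and the RPL22 probe A_72_P177736, above 25.2%.

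Most ribosomal protein probes varied less between boars of the same diet than the median present probe did. The median SD between boars within a diet was 0.22 for the 52 probes, beside 0.30 for all present probes and 0.27 for the other probes of the brightest 10%, and 40 of the 52 lay below the median of all present probes. It was 0.23 for the large and 0.20 for the small subunit. The 52 probes were brighter than the other probes of the brightest 10%, with a median log2 signal of 16.43 against 14.03. The SD also changed with brightness. Over 10 classes of all present probes its median was 0.18 in the dimmest, 0.37 in class 6 and 0.27 in the brightest. The part of brightness in the low SD of the 52 probes was not tested. RPSA, which helps to form the small subunit and is also known as a laminin receptor precursor, had the lowest SD of the 52 (A_72_P004916, 0.08), with 17.24, 17.18, 17.19 and 17.11 on the supplemented and 17.16, 17.10, 17.06 and 16.94 on the control diet. The RPS26 probe A_72_P078081, whose protein lies where the message leaves the small subunit, gave 16.40, 16.39, 16.37 and 16.23 against 16.43, 16.52, 16.29 and 16.36, with an SD of 0.09. On these probes the spread over the 8 boars was at most 1.23-fold, while the other probes of the same genes spread 1.32-fold to 2.36-fold. The largest SDs belonged to RPL5 (A_72_P175321, 0.67), RPL22 (A_72_P177736, 0.66) and RPLP0 (A_72_P271784, 0.57), whose signals spread 3.66-fold, 3.73-fold and 3.55-fold over the 8 boars. Within the litter of brothers alone the median SD of the 52 probes was 0.11, beside 0.17 for all probes present there, and in the other 4 boars 0.24 beside 0.33.

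No ribosomal protein probe passed the test between the diets. With limma, 0 of these 52 had a P-value under 0.05, beside 689 of the 36982 present probes (1.86%), and after Benjamini-Hochberg adjustment 0 of the 52 and 0 of all present probes (0%) did. The smallest adjusted p of the 52 was 0.840 from limma. The ordinary equal-variance test on the same values put 1 of the 52 under 0.05 before adjustment, beside 717 of the present probes (1.94%), and 0 after it. The 1 probe was the RPL11 probe A_72_P191886, which was named only through the study's list of probes with P under 0.05. In 0 of the 52 did all boars of a diet lie above all boars of the other, beside 418 of the present probes (1.13%). The log2 fold changes, supplemented minus control diet, lay between -0.42 and 0.44 with a median of 0.03, beside -0.0028 for all present probes. On the supplemented diet 27 of the 52 probes had the higher and 25 the lower mean, 13 and 13 for the large and 14 and 12 for the small subunit. This split depended on the scaling, since scaling the background-subtracted signal to the 75th percentile gave 36 higher and 16 lower (median 0.09) and the median signal scaled in the same way gave 37 and 15 (median 0.10). The medians of all present probes were -0.02 and -0.0069 with these scalings. The 95% confidence interval of the fold change lay within 1.5-fold in either direction for 33 of the 52 probes (63.5%). It lay within 2-fold for 49 (94.2%), all but those of RPL5 (A_72_P175321), RPL22 (A_72_P177736) and RPLP0. The shares were 43.3% and 81.4% for all present probes and 45.3% and 85.0% for the other probes of the brightest 10%.

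**Figure D1:**
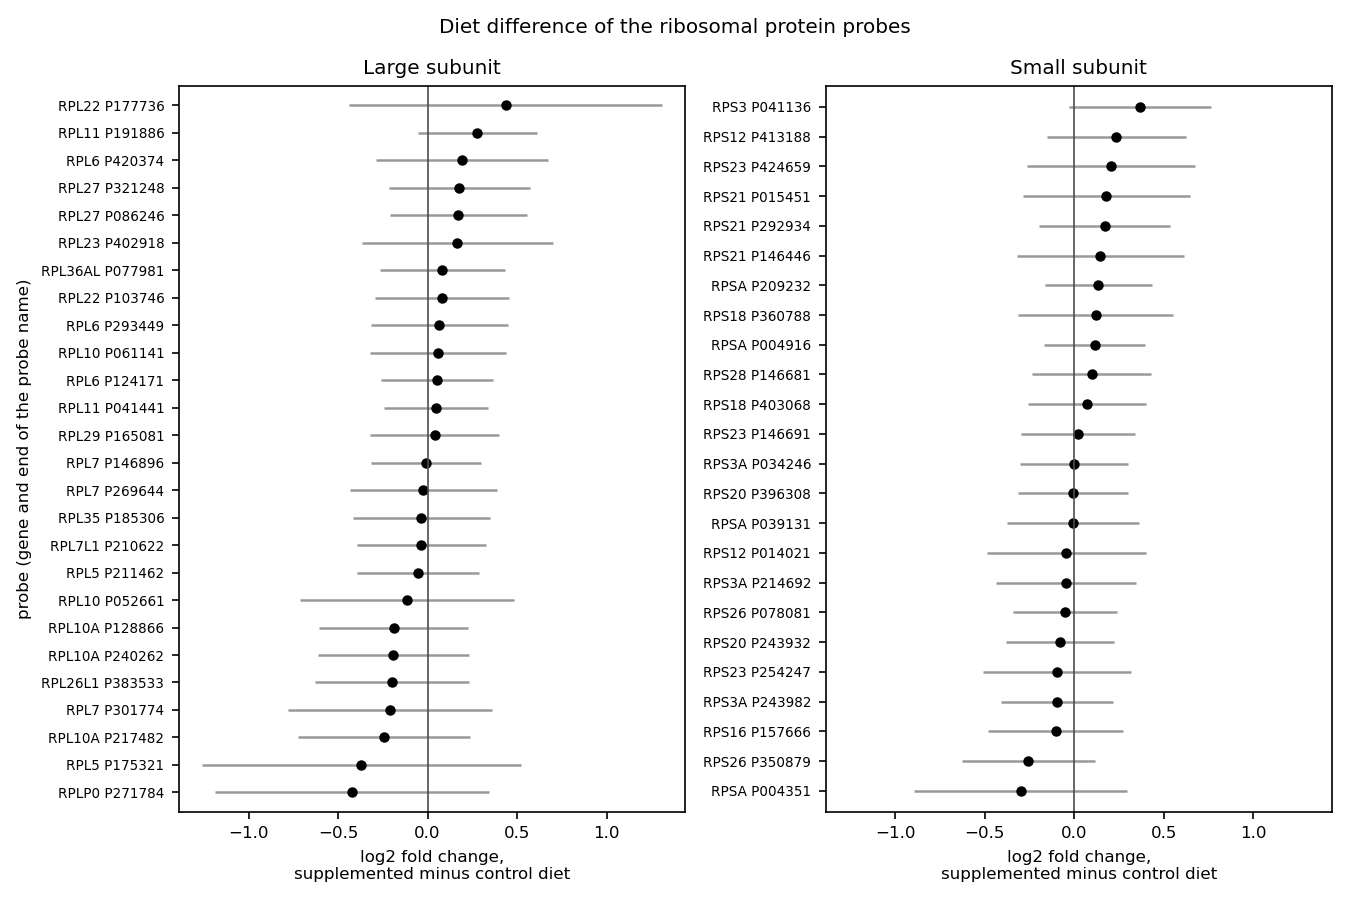
Log2 fold change (supplemented minus control diet, horizontal axis) of 50 of the 52 ribosomal protein probes, by subunit and ordered by size, with points for the limma estimate from 4 boars per diet and bars for its 95% confidence interval. All intervals shown include 0, and the points lie between -0.42 and 0.44.

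The highest diet differences were those of RPL22, RPS3 and RPL11. RPL22, an RNA-binding protein of the large subunit, was read at a dim probe (A_72_P177736) with 5.92, 5.86, 6.43 and 7.22 on the supplemented and 5.64, 5.81, 6.91 and 5.32 on the control diet. Its level was high in m_9527 and m_9502, which received different diets, and the log2 fold change was 0.44 (standard error 0.39). Without m_9527 the difference was 0.15, without m_9528 it was 0.24 and without m_9502 it was 0.77. It was 0.70 when the background was subtracted before scaling to the 75th percentile and 0.25 with normexp, where RPS3 (0.37) and RPL11 (0.26) ranked above it. RPS3, which lines the channel where the message enters the small subunit and also acts in DNA repair, gave 15.59, 15.49, 15.49 and 15.06 on the supplemented and 14.81, 15.14, 15.31 and 14.90 on the control diet (A_72_P041136). The boars m_9597, m_9599 and m_9499 were above all control boars, and m_9527 was within their range. RPS3 differed between the diets by 0.37 on the log2 scale (standard error 0.18, limma adjusted p = 0.840), by 0.55 in the litter of brothers and by 0.17 in the other boars. The unadjusted P-value of RPS3 was 0.0661 with all boars, 0.0315 without m_9502, where 16.7% of all present probes were under 0.05, 0.0200 without m_9527 and between 0.0780 and 0.171 without each of the other boars. With array weights the difference was 0.59 (P-value 0.00125), and 15.8% of all present probes were under 0.05.

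RPL11, which with RPL5 and the smallest ribosomal RNA forms a particle that can also bind MDM2, gave 10.18, 10.39, 10.31 and 10.34 on the supplemented and 10.05, 10.31, 9.90 and 9.85 on the control diet at the probe from the study's list (A_72_P191886). The control boar m_9600 lay among the supplemented boars, and the other control boars below them. The diets differed by 0.28 on the log2 scale (standard error 0.15, limma adjusted p = 0.840), with 0.11 among the brothers and 0.45 among the other boars. The second RPL11 probe (A_72_P041441) had a difference of 0.05 (standard error 0.13). Whether a hexamer in the listed probe acts as a polyadenylation signal was not tested. The last 30 bases of the probe, positions 31 to 60 of its 60, are shown because this is the only ribosomal protein probe with a sequence in the study's list. The hexamer AATAAA, the sequence of the common polyadenylation signal, is in capitals.
RPL11 A_72_P191886: ttctgaaaaAATAAAaatctgttctctttc
The hexamer stood at positions 40 to 45 of the probe, and 78 of the 480 listed probe sequences (16.2%) held it.

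The lowest diet differences were those of RPLP0, RPL5 and RPSA. RPLP0, the base of the stalk that receives elongation factors on the large subunit, gave 14.59, 14.54, 14.42 and 13.41 on the supplemented and 15.23, 14.63, 13.87 and 14.90 on the control diet (A_72_P271784). RPL5 gave 15.03, 14.89, 15.10 and 13.71 against 15.58, 15.18, 14.04 and 15.40 at A_72_P175321. RPSA gave 14.17, 14.07, 13.94 and 13.18 against 14.32, 14.27, 13.56 and 14.42 at A_72_P004351. In each of these probes m_9527 of the supplemented diet was the lowest boar and m_9502 of the control diet the next, and the diets overlapped. The log2 fold changes were -0.42 (standard error 0.34) for RPLP0, -0.37 (0.40) for RPL5 and -0.30 (0.27) for RPSA. Without m_9527 they were -0.14, -0.05 and -0.08, and without m_9502 they were -0.68, -0.70 and -0.49. Without the control boar m_9598 they were -0.23, -0.20 and -0.24, so that the size of each depended on single boars of both diets. With all boars, other probes of the same genes differed less, with -0.05 for the second RPL5 probe and 0.11, 0.13 and -0.01 for the other RPSA probes. Without m_9527 these RPSA probes had 0.13, 0.18 and 0.09, and so differed more than A_72_P004351. The second RPL5 probe had -0.16 without m_9499. It had 0.02 with the background-subtracted and 0.04 with the median signal scaled to the 75th percentile.

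The level of the ribosomal protein probes differed between single boars of the same diet. The median deviation of the 52 probes from their own means was 0.02, 0.02, 0.08 and -0.13 on the supplemented and 0.10, 0.07, -0.13 and -0.18 on the control diet, with a mean of -0.0016 ± 0.09 and -0.03 ± 0.14 (SD, n = 4 each). The brothers and m_9499 thus stood above and m_9527, m_9502 and m_9528 below, and each diet held boars of both kinds. In m_9527, m_9502 and m_9528 the medians were -0.18, -0.21 and -0.05 for the large and -0.06, -0.02 and -0.20 for the small subunit. That of m_9599 was -0.0086 for the large subunit. In m_9528 the lowest level of the 8 boars was found for 20 of the 52 probes, in m_9527 for 19 and in m_9502 for 8, beside 26.6%, 23.1% and 11.6% of all present probes. In m_9499 it was found for 0 of the 52, beside 8.72% of all present probes. When the background-subtracted signal was scaled to the 75th percentile instead, the median deviation was -0.25 in m_9528, 0.12 in m_9502 and -0.0084 in m_9527, where that of all present probes was 0.05 in each of these boars. The low median of m_9528 thus held under this scaling and that of m_9502 turned. That of m_9527 came close to 0 but lay 0.06 below all present probes. Among the brothers, the medians of m_9598 and m_9600 turned below 0, to -0.07 and -0.02. Then m_9598 lay 0.07 below and m_9600 0.02 above all present probes. With the median signal scaled in the same way, the median of all present probes itself was 0.08 in m_9528, 0.09 in m_9502 and 0.13 in m_9527. That of the ribosomal protein probes lay 0.30 below it in m_9528, 0.02 above it in m_9502 and 0.13 below it in m_9527. It lay 0.05 above it in m_9598 and 0.01 above it in m_9600.

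**Figure D2:**
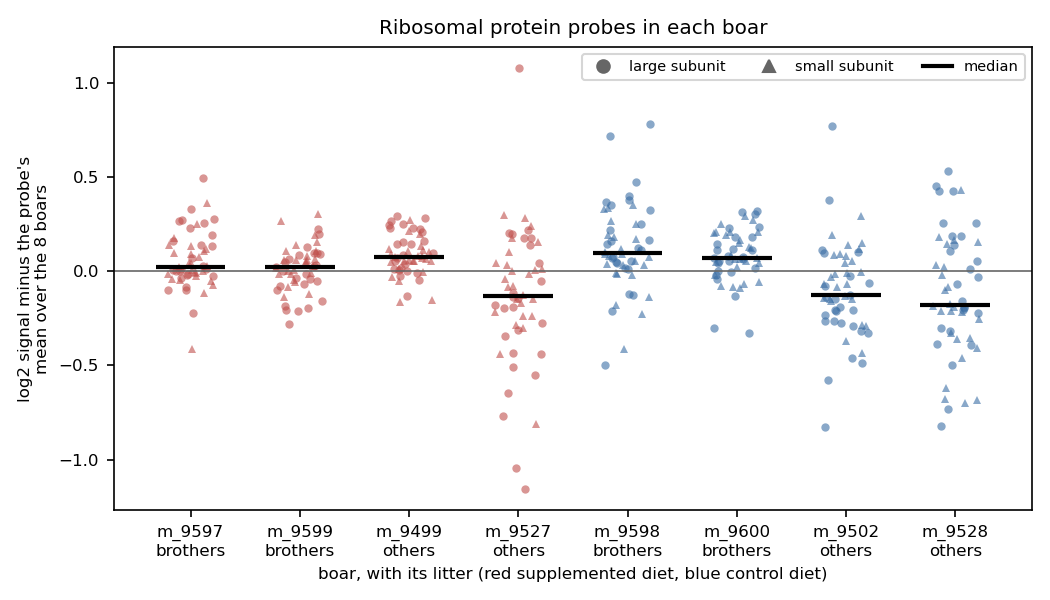
Deviation of each of the 52 ribosomal protein probes from its mean over the 8 boars (log2 signal, vertical axis) in each boar, with circles for the large and triangles for the small subunit, red for the supplemented and blue for the control diet, and black lines for the median over the probes. The medians lie between -0.18 in m_9528 and 0.10 in m_9598, and the probes scatter most in m_9527, from -1.16 to 1.08.

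Most of the probes fell into a set that was low in m_9527 and m_9502 or a set that was low in m_9528, and 13 of the 52 into neither, a division noticed after the values were seen. In 19 probes of 12 genes the boars m_9502 and m_9527 were the lowest pair, which was the case for 20.03% of the other probes of the brightest 10% and 17.9% of all present probes. These were all 3 probes of RPL10A and of RPL7, both probes of RPS26, the RPLP0 and RPL29 probes, and probes of RPL5, RPL6, RPL10, RPS3A, RPS20, RPS23 and RPSA. Their median deviation was -0.28 in m_9502, -0.35 in m_9527, 0.25 in m_9598 and 0.16 in m_9528. In 20 probes of 12 genes m_9528 was the lowest boar, beside 30.5% of the other probes of the brightest 10% and 26.6% of all present probes, among them all 3 probes of RPS21, both of RPS18, RPL11 and RPL27, and those of RPS28, RPL23 and RPL36AL. Their median deviation was -0.39 in m_9528 and between -0.0044 and 0.11 in the other boars. When the background-subtracted signal was scaled to the 75th percentile, 9 probes (17.3%) belonged to the first set, beside 12.4% of the other probes of the brightest 10% and 16.1% of all present probes, and 29 (55.8%) to the second, beside 27.7% and 23.4%. With the median signal scaled in the same way, 8 (15.4%) belonged to the first set, beside 13.0% and 12.3%, and 28 (53.8%) to the second, beside 28.8% and 19.07%.

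RPS21, a short protein of the small subunit, belonged to the second set. It gave 16.75, 16.86, 16.86 and 17.08 on the supplemented and 16.78, 17.01, 16.94 and 16.12 on the control diet at A_72_P015451. At A_72_P146446 the values were 16.62, 16.64, 16.75 and 16.81 against 16.63, 16.84, 16.83 and 15.95. At A_72_P292934 they were 16.44, 16.42, 16.55 and 16.67 against 16.26, 16.57, 16.56 and 16.03. On each of the 3 probes m_9528 stood below every other boar, and the other control boars overlapped with the supplemented ones. The diet differences of RPS21 were 0.18, 0.14 and 0.17, and without m_9528 they became -0.02, -0.06 and 0.06.

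Several probes read the same gene for 17 of the 27 genes, which gave 34 pairs of probes. The median SD over the boars of the difference within a pair was 0.18, beside 0.30 for 1088 pairs of 484 other genes named by RefSeq and 0.20 for the 236 pairs of 68 such genes with both probes in the brightest 10%. The diet difference had the same sign in 26 of 34 pairs (76.5%), beside 70.1% and 86.0%, and the same boar was lowest in 18 (52.9%), beside 44.9% and 72.5%. In 15 of the 34 pairs (44.1%) the difference varied less than either probe did, beside 40.9% and 53.4%. Among the pairs that agreed best were those of RPS20 and RPS21, with a mean SD of the difference of 0.08 and 0.11, and the least agreement was in RPL22, RPL5 and RPL10, with 0.58, 0.57 and 0.31. Ribosomal protein genes have many near-identical copies in mammalian genomes, and the sequences of these probes other than that of RPL11 were not used here, so which copies each probe reads is uncertain.

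The probes of RPL22 and RPL5 disagreed by similar amounts. For RPL5, where A_72_P175321 spread 3.66-fold, the second probe (A_72_P211462) gave 16.87, 16.81, 17.25 and 16.83 on the supplemented and 17.09, 17.04, 16.84 and 17.03 on the control diet, a 1.36-fold spread. The second RPL22 probe (A_72_P103746) gave 15.33, 15.20, 15.66 and 15.63 against 15.29, 15.65, 15.34 and 15.22, a 1.37-fold spread beside the 3.73-fold spread of the dim probe. The boars m_9499 and m_9527 were high on both RPL22 probes, whereas m_9600 was high on the second and low on the dim probe. The boar m_9502 was high on the dim probe (6.91) and slightly below the mean on the second (15.34). The dim probe minus the second departed most from its mean in m_9527 (0.86) and m_9502 (0.85). For RPL10, whose protein completes the large subunit and is needed for its joining with the small one, A_72_P061141 gave 15.75, 15.65, 15.58 and 15.37 against 15.61, 15.86, 15.29 and 15.36. Its second probe (A_72_P052661) gave 13.96, 13.68, 13.79 and 12.87 against 13.88, 13.82, 13.17 and 13.89. The RPL10 probes had m_9502 and m_9527 in common as low boars and parted in m_9528, which was low on the first and high on the second. Their diet differences were 0.06 (standard error 0.17) and -0.11 (standard error 0.27), and leaving out single boars gave values from -0.02 to 0.17 for the first probe and from -0.29 to 0.12 for the second, so that neither held its sign.

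RPSA was read by 4 probes, which showed both of the patterns among the boars. A_72_P209232 gave 17.07, 17.01, 17.16 and 16.88 on the supplemented and 17.00, 16.87, 16.96 and 16.75 on the control diet, lowest in m_9528 like A_72_P004916. A_72_P039131 gave 16.76, 16.84, 16.74 and 16.38 against 16.87, 16.78, 16.40 and 16.72, low in m_9527 and m_9502 like A_72_P004351. The SD of the difference within the first pair was 0.07 and within the second 0.27. Across the patterns it was 0.18 and 0.20 for A_72_P039131 and 0.44 and 0.45 for A_72_P004351 against A_72_P004916 and A_72_P209232. The Pearson correlation over the boars of A_72_P039131 was 0.88 with A_72_P004351 and 0.36 and 0.25 with the first pair.

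**Figure D3:**
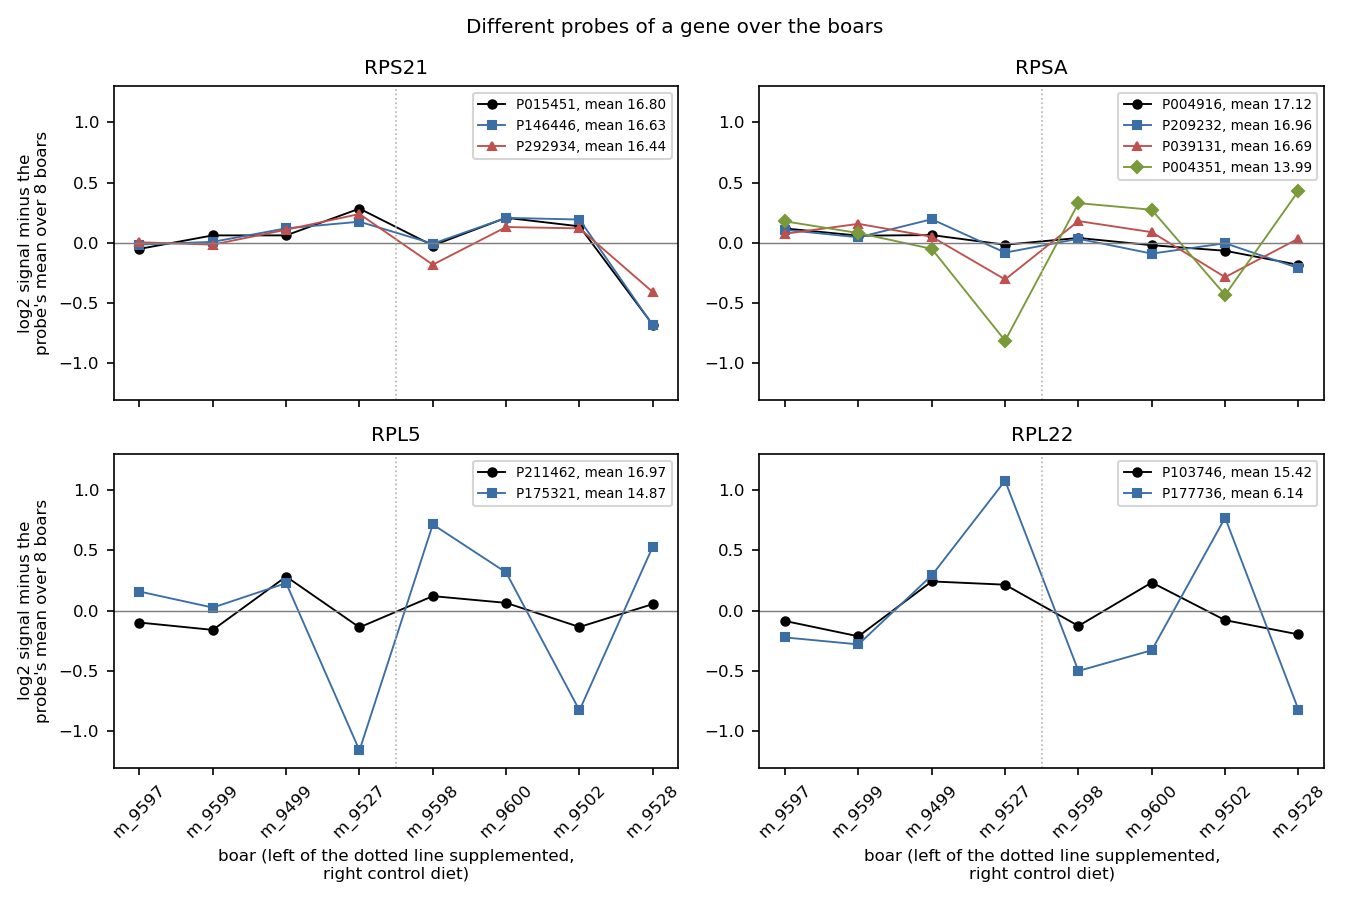
Deviation of each probe from its mean over the 8 boars (log2 signal, vertical axis) for RPS21, RPSA, RPL5 and RPL22 in the 4 boars on the supplemented diet, left of the dotted line, and the 4 on the control diet, with a line for each probe and its mean log2 signal in the key. The 3 RPS21 probes share the low value in m_9528, while A_72_P175321 of RPL5, A_72_P004351 of RPSA and A_72_P177736 of RPL22 depart from their companions most in m_9527, and also in boars of the control diet.

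The copies of ribosomal protein genes that bear a name of their own were RPL26L1, RPL36AL and RPL7L1. RPL26L1, which closely resembles RPL26, gave 14.18, 14.29, 14.11 and 13.65 on the supplemented and 14.63, 14.21, 14.09 and 14.09 on the control diet (A_72_P383533). RPL36AL, an autosomal copy of the X-linked RPL36A, gave 16.93, 16.93, 16.95 and 17.14 against 16.96, 17.06, 17.04 and 16.56 (A_72_P077981). RPL7L1, a relative of RPL7 that acts in the assembly of the large subunit, gave 14.30, 14.13, 14.33 and 14.46 against 14.34, 14.02, 14.42 and 14.58 (A_72_P210622). RPL26L1 was low in m_9527 and high in m_9598, RPL36AL was low in m_9528, and RPL7L1 was highest in m_9528, and in each the diets overlapped. The diet differences were -0.20 (standard error 0.19), 0.08 (0.16) and -0.04 (0.16). Without any 1 of the boars they ranged from -0.28 to -0.06 for RPL26L1, from -0.03 to 0.14 for RPL36AL and from -0.14 to 0.04 for RPL7L1.

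Between the litter of brothers and the other boars, 3 of the 52 had a limma P-value under 0.05, beside 2999 of the present probes (8.11%), and 0 after adjustment, beside 0%. The 3 were higher in the brothers, RPL6 (A_72_P420374) by 0.46, RPS16 (A_72_P157666) by 0.35 and RPL10 (A_72_P061141) by 0.32, with adjusted p of 0.587, 0.590 and 0.611 from limma. RPS16 belongs to the head of the small subunit and RPL6 to the surface of the large subunit. The diet difference itself was compared between the litter of brothers and the other boars as an interaction, and limma put 0 of the 52 under a P-value of 0.05, beside 738 of the present probes (2%). The median diet difference of the 52 probes was -0.06 among the brothers, with 14 higher and 38 lower. Among the other boars it was 0.11, with 35 higher and 17 lower. The medians of all present probes were 0.00057 and -0.0095. All probes were read in the same boars, so these counts are not counts of independent values.

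Other genes of translation were read by few named probes, and 1 of their 37 present probes had a P-value under 0.05, beside 1.86% of all present probes. This was a probe of EIF4A3, a helicase of the exon junction complex (A_72_P088651), with a log2 fold change of -0.50, and the second EIF4A3 probe had -0.66. The list of initiation factors had 7 of 49 genes present with 13 probes and a median difference of -0.22. The list for elongation and termination had 2 of 15 genes present with 12 probes and a median of -0.25. The mean was lower in the supplemented boars for 8 of 8 probes of EEF1A1, which brings aminoacyl-tRNA to the ribosome, and for 4 of 4 probes of TPT1. TPT1 was on this list but is not itself an elongation or termination factor. Of all 36982 present probes, 18669 had the lower mean in the supplemented boars. With either scaling to the 75th percentile 9 of these 12 probes were lower, and 8 without m_9527. The median difference of the 12 probes was -0.08 without m_9527 and -0.45 without m_9502. None of the 12 had a P-value under 0.05 with all boars, 4 had one without m_9502, where 16.7% of all present probes did, and 0 passed after adjustment. Their median deviation was 0.14, -0.0088, 0.15 and -0.58 on the supplemented and 0.44, 0.19, -0.47 and 0.32 on the control diet. EEF1A1 and TPT1 were thus low in m_9527 and m_9502, as the first set of ribosomal protein probes was. RACK1, a ribosomal protein with another kind of name that sits on the head of the small subunit, had 5 probes with diet differences between -0.26 and 0.20, 2 of them above 0 and 3 below. The assembly factors had 4 of 68 genes present with 6 probes and a median of 0.27, between -0.31 for NIP7 and 0.59 for EXOSC1. The lists of the mitochondrial ribosome, of RNA polymerase I and of mTOR and its kinases had 0 genes with a named probe.

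The genes most like the ribosomal protein probes were sought among 2431 other present probes named by RefSeq, by the Pearson correlation over the 8 boars with the median deviation of the 52 probes, as a description. They were VTI1B (0.93), NPC2 (0.92), TNFSF13B (0.90), TAP1 (0.90) and SCD (0.88). The probes of TNFSF13B and TAP1 were dim, with mean log2 signals of 5.89 and 5.245, beside a median of 7.93 for all present probes. Without background subtraction, background may make up part of such signals. VTI1B, a protein of vesicle fusion, gave 16.05, 16.09, 16.02 and 15.80 on the supplemented and 16.08, 16.14, 15.73 and 15.79 on the control diet. It was low in m_9527, m_9502 and m_9528, the pattern for which it was chosen, and the medians of m_9527 and m_9502 depended on the scaling, as given above.

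Marker genes of the cells of the testis varied between the same boars. Of 11 lists with 83 genes, 39 genes were present with 61 probes. Between the diets, 0 of these probes had a limma P-value under 0.05, beside 1.86% of all present probes, and 0 an adjusted one, beside 0%. Spermatid markers had 6 of 11 genes present, with PRM1 as the brightest, and their summed signals were 1327000, 1210000, 1154000 and 1002000 on the supplemented and 1347000, 1245000, 1054000 and 1634000 on the control diet. The sums were lowest in m_9527 and m_9502 and highest in m_9528, an order held by 4 of the 8 spermatid probes, those of CRISP2 and ZPBP, and not by PRM1, which was lowest in m_9499. It was also that of 4 of the 52 ribosomal protein probes (7.69%) and of 10.1% of all present probes. The Leydig cell markers, with 7 of 8 genes present and INSL3 as the brightest, summed to 449600, 448700, 547200 and 397800 against 431000, 479500, 457900 and 495200. These sums rest mostly on INSL3, and the median deviation of the 13 Leydig cell probes ranged more widely, from -0.92 in m_9527 to 1.07 in m_9499. Their part in the levels of the ribosomal protein probes was not tested. The median diet differences were -0.25 for spermatids, -0.16 for Leydig cells, 0.06 for Sertoli cells, 0.12 for spermatogonia, -0.15 for spermatocytes, 0.28 for peritubular cells, 0.24 for macrophages, -0.05 for endothelium, -0.95 for duct epithelium and -0.08 for lymphocytes, and no probe was named for the markers of red blood cells. Single genes carried some of these medians, since CRISP2 and ZPBP lay between -0.58 and -0.36 among the spermatid markers while ACR, ODF1 and PRM2 lay between 0.02 and 0.07. The duct epithelium had 2 of 7 genes present, EPCAM with differences from -1.19 to -0.95 and CDH1 with -0.18 and -0.15, and its summed signals were 1962, 13410, 4832 and 5018 against 20010, 12310, 4528 and 11750.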

How the data were processed

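The authors deposited the scanner output of each array, which gives spot intensity from Feature Extraction before any normalization between arrays, and a table of normalized log2 values, which differed from the values used here by at most 0.056 over 35258 probes. Here, gMedianSignal of all spots but controls was taken to log2 and quantile-normalized, with no background subtraction, and spots of a probe were averaged. A probe was present if its signal was above 25 with the flag gIsWellAboveBG in at least 50% of the boars of a diet. Diets were compared with limma 3.58.1 in R 4.3.3 (two-sided, lmFit and eBayes), P-values were adjusted by Benjamini-Hochberg over all present probes, and the code was tested on simulated data. Of 3239 probes with a RefSeq accession, 2628 matched the RefSeq gene table, which was used for names only. Different probes of a gene were kept apart. The values of 2 genes are not reported here.

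The members and lists were chosen with earlier results of these data known. Named probes were those with a limma P-value under 0.05, the 3 highest and lowest in diet difference, signal and SD, the 3 genes with the best and the least agreement between probes, paralogues, RPSA, RPLP0, RPLP1, RPLP2 and RPS27A, and members in the study's list. Probes outside this rule (RPS16, RPL6 and those listed by set) were chosen after their values were seen. Alternatives were background-subtracted and median signals scaled to the 75th percentile, normexp with an offset of 50 (on gMedianSignal), other filters, the ordinary test, trend and robust variances, array weights, the litter of brothers against the other boars as a block, each of these groups alone, removal of outlier spots, the deposited values and each boar left out. Python 3.11.15 with matplotlib 3.10.9 drew the figures.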

Additional observations from a re-analysis of the deposited data

Results flagged for a closer look

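Among 102 groups of 4 boars, by diet, for 50 of the ribosomal protein probes and for the median deviation, 10 held a boar whose gap to the nearest other boar exceeded Dixon's 95% critical value as a share of the range of the group, a share of 9.80%, beside 6.84% of such groups over all present probes and about 1 in 20, or 5.1, by chance. Among the control boars, m_9502 was low for RPL7 (A_72_P269644, 15.58, the others 15.86 to 15.90), RPL6 (A_72_P124171, 17.16, the others 17.38 to 17.41) and RPL10 (A_72_P052661, 13.17, the others 13.82 to 13.89). The control boar m_9528 was low for both RPS18 probes (A_72_P360788, 16.03, the others 16.73 to 16.84, and A_72_P403068, 17.08, the others 17.49 to 17.52). Among the supplemented boars, m_9527 was low for RPLP0 (13.41, the others 14.42 to 14.59) and RPL5 (A_72_P175321, 13.71, the others 14.89 to 15.10) and high for RPL36AL (17.14, the others 16.93 to 16.95). The boar m_9499 was high for the second RPL5 probe (A_72_P211462, 17.25, the others 16.81 to 16.87), and m_9599 was low for RPS23 (A_72_P146691, 12.99, the others 13.16 to 13.19).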

How the results depend on the processing

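The number of ribosomal protein probes with a P-value under 0.05 between the diets, 0 of 52 with limma, was 1 with normexp (RPS3), 1 with the ordinary equal-variance test (RPL11), 2 with array weights (RPS3 and a second RPS26 probe, A_72_P350879) and 1 within the litter of brothers (RPS3), where 1.94%, 1.94%, 15.8% and 6.20% of all present probes were under 0.05. With each boar left out in turn it lay between 0 and 2, with 2 (RPL22 and RPS3) without m_9502, where 16.7% of all present probes were under 0.05, 1 (RPS3) without m_9527, beside 1.18%, 1 (RPL11) without m_9600, beside 3.27%, and 0 without each of the other boars, beside 0.909% to 2.05%. After adjustment it was 0 in each of these settings, with a smallest adjusted p between 0.279 and 1 from limma. The median SD moved from 0.22 to 0.11 in the litter of brothers alone. The cause of these changes was not tested. The median diet difference was between -0.06 and 0.11 over all settings, and its sign turned with array weights (-0.02), among the brothers (-0.06) and without m_9597 (-0.0016), m_9502 (-0.0063) or m_9528 (-0.01). It was 0.02 for the probes named by RefSeq and 0.04 with 1 value per gene. The share of probes in the brightest 10% was between 94.2% and 96.2%. Signals without background subtraction understate differences of dim probes such as that of RPL22.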
